A study of Mus musculus with 167 samples.

Results

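The microRNA miR-511 was examined through its 2 mature arms, mmu-miR-511-3p and mmu-miR-511-5p, among the 1915 mature miRNAs counted by small RNA sequencing in 5 mouse tissues. Both arms were chosen by name, with their reads per 1000000 miRNA reads of the library (RPM) by tissue, strain and irradiation already in view, so differences between tissues, between strains and between irradiated and sham mice are given as descriptions with no test. The study exposed the thorax of gnotobiotic mice to a single dose of X-rays (whole thorax lung irradiation, WTLI) with the rest of the body shielded, and compared them with sham irradiated mice. Lung, heart, brain, leukocytes (WBC) and erythrocytes (RBC) of 35 animals gave 167 libraries, and tissue RNA came from homogenates of mixed cell types. The C3Hf/Sed/Kam (C3H) mice were all female and were sampled at month 4, with 7 irradiated and 8 sham animals. By the study's methods, males were irradiated at a younger age than females. The C57Bl/6 (C57) mice were sampled at month 6, with 5 irradiated animals (4 males and 1 female) and 15 sham animals (8 males and 7 females). Strain and month cannot be told apart in this design, and the irradiated C57 group was mostly male. WBC libraries were fewer, with 6 irradiated and 5 sham C3H mice and 5 irradiated and 11 sham C57 mice.

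miR-511 is hosted by Mrc1, the gene of the mannose receptor CD206, which is carried by many tissue macrophages, including alveolar macrophages, and is used as a marker of alternatively activated macrophages. The miRNA is transcribed with its host, and the 3p arm is known as the more abundant, active strand in mouse macrophages. A miRNA guides silencing complexes to messenger RNAs mainly through its seed, bases 2 to 8 from the 5′ end, so arms with different seeds have different targets. miR-142a is found in nearly all leukocytes and miR-223 mainly in myeloid cells, and both serve below as reference levels.

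The 3p sequence was matched in the RefSeq miRNA table (GRCm38.p6), which held 1 of the 2 arms. It lies on chromosome 2, plus strand, at chr2:14261051-14261072, and the Mir511 hairpin spans 79 bases at chr2:14261003-14261081. In the GENCODE annotation of the same build, the hairpin is in the intron between exons 5 and 6 of Mrc1 (transcript with 30 exons, chr2:14229392-14332057, plus strand), on the same strand as the gene and 107 bases before exon 6. The mature arm is shown with its seed in capitals, and the hairpin with the 3p arm, bases 49 to 70, in capitals.
miR-511-3p: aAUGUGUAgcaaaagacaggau
Mir511 hairpin: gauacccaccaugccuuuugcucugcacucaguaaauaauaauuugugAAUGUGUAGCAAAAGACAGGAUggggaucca

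No other of the 1738 mature miRNAs in that table shares bases 2 to 8 with miR-511-3p, and its sequence occurs in 1 of 1005 hairpins. Just 2 miRNAs share bases 2 to 7 only and differ at base 8, the last capital in each line. They are shown because they come closest to the seed.
miR-1187: uAUGUGUGuguguauguguguaa
miR-1198-5p: uAUGUGUUccuggcuggcuugg

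miR-1187 had 0 reads in all libraries and miR-1198-5p had 3012 reads in lung (mean 24.2 RPM).

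Lung libraries held 2024219 to 4582208 miRNA reads, so 1 read was worth 0.218 to 0.494 RPM and 3 reads, used here as the floor for a count of 0, were worth 0.655 to 1.48 RPM. Over all tissues the totals ran from 1794995 reads in a brain library to 7865102 reads in a WBC library. Tissue labels were checked against marker miRNAs. Cardiac miR-208a-3p had a mean of 7158 RPM in heart and 28.4 RPM in lung, neuronal miR-124-3p had 3374 RPM in brain and 2.44 RPM in lung, and epithelial miR-200a-3p had 13244 RPM in lung and 104 RPM in heart. In the blood fractions some markers differed and some did not. miR-223-3p stood at 901 RPM in WBC and 128 RPM in RBC and miR-146a-5p at 570 and 81.9 RPM, whereas erythroid miR-451a stood at 14481 and 14469 RPM and miR-142a-3p at 6436 and 5461 RPM. Lung libraries of C57 sham males 1 and 4 stood apart, with a summed level of the 11 myeloid marker miRNAs of 225926 and 263696 RPM against 40083 to 68362 RPM in the other 6 C57 sham males. Without the miR-21a arms the sums were 23502 and 26774 RPM in these 2 libraries against 9630 to 14263 RPM in the other 6. The differences of miR-511-3p and of the marker lists in C57 lung are also given without these 2 libraries. Not all of the 11 myeloid marker miRNAs were highest in WBC. The arms of miR-142a and miR-223 were higher in WBC than in lung. However, miR-146a-5p stood at 7140 RPM in lung and 570 RPM in WBC, and miR-146b-5p at 1973 and 49.3 RPM. miR-378a-3p stood at 14186 RPM in heart and 519 RPM in WBC. The sum of the list was therefore not read as a level of myeloid cells.

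miR-511 was almost wholly the 3p arm, and it was found mainly in lung and heart. In lung, 284 reads of miR-511-3p were counted among 124609015 miRNA reads in 35 libraries, against 1 read of miR-511-5p. In heart there were 73 reads of the 3p arm and 3 of the 5p arm. Brain had 6 reads of the 3p arm in 35 libraries, RBC had 2 in 35 libraries and WBC had 1 in 27 libraries, and no read of the 5p arm was counted in these 3 tissues. No single library held more than 1 read of miR-511-5p, so its variation could not be described.

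Pooled over libraries, the level of miR-511-3p was 2.28 RPM in lung (95% Clopper-Pearson interval 2.02 to 2.56) and 0.640 RPM in heart (0.502 to 0.805). It was 0.0590 RPM in brain (0.0217 to 0.129), 0.0163 RPM in RBC (0.00198 to 0.0590) and 0.00875 RPM in WBC (0.000221 to 0.0487). These intervals cover counting error only. Between libraries, the mean was 2.31 ± 2.52 RPM in lung and 0.662 ± 0.491 RPM in heart (SD, n = 35 each), so the spread between lung libraries exceeded the difference of the means. The intervals of brain, RBC and WBC overlapped and their order was not resolved. By mean RPM, miR-511-3p ranked 328 of 1058 miRNAs with a read in lung and 382 of 978 in heart, so it was a minor miRNA in both organs.

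The read count per library ranged from 0 to 35 in lung, with a median of 6, and from 0 to 5 in heart, with a median of 2. The arm was found in 32 of 35 libraries of each organ. In brain, WBC and RBC no library had more than 1 read. Within the same animals, lung exceeded heart in RPM in 28 of 35 mice, and heart exceeded brain in 30 of 35. All 12 C57 males, sham and irradiated, were higher in lung than in heart, whereas only 4 of 8 C3H sham females were.

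**Figure D1:**
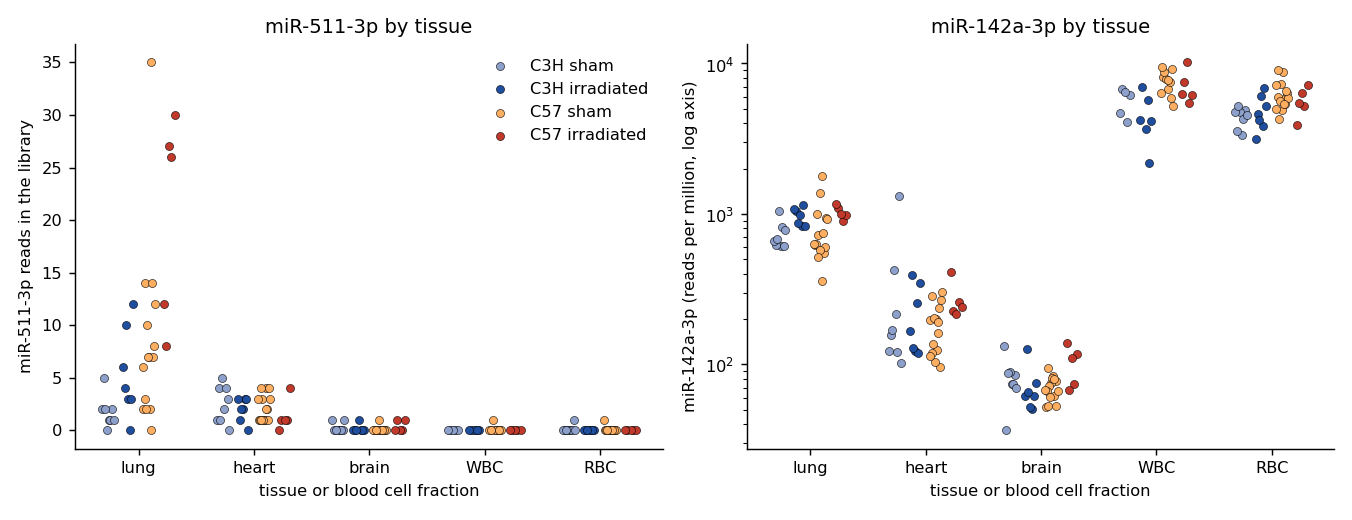
The left panel shows the number of miR-511-3p reads in each library by tissue, and the right panel shows miR-142a-3p in RPM on a log axis; each point is 1 library, coloured by strain and irradiation. Lung and heart hold nearly all miR-511-3p reads, with at most 1 read per library in brain, WBC and RBC, while miR-142a-3p is highest in the 2 blood fractions.

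The leukocyte miRNA miR-142a-3p was abundant in the blood fractions that held almost no miR-511-3p, whereas miR-223-3p was higher in WBC and lower in RBC than in lung and heart. The mean level of miR-142a-3p was 850 RPM in lung, 236 RPM in heart, 6436 RPM in WBC and 5461 RPM in RBC, and that of miR-223-3p was 226, 242, 901 and 128 RPM in the same order. Expressed per 1000000 reads of miR-142a-3p in the same library, miR-511-3p stood at 2547 ± 2266 in lung (SD, n = 35), 3456 ± 2465 in heart (n = 35), 836 ± 2075 in brain (n = 35), 3.37 ± 14.8 in RBC (n = 35) and 1.28 ± 6.66 in WBC (n = 27). Lung and heart, which differed 3.50-fold in mean RPM over all mice, lay within 1 SD of each other on this scale. Both figures pool unlike groups. The ratio of lung to heart in mean RPM was 10.1 in irradiated and 4.16 in sham C57 males, 2.39 in C57 sham females, 2.82 in irradiated C3H and 0.629 in C3H sham mice, where lung was lower. Per 1000000 miR-142a-3p reads, lung and heart stood at 5902 and 2384 in irradiated C57 males and at 722 and 3684 in C3H sham mice. Per 1000000 reads of miR-223-3p, lung stood at 9684 ± 9684 and heart at 2878 ± 2007 (SD, n = 35 each), so the order of the 2 organs depended on the reference miRNA. Brain stood at 2714 ± 6692 on that scale (SD, n = 35), close to heart, but rested on 6 reads in all. In homogenates, fewer cells of a type and less RNA per cell cannot be told apart.

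Within lung, C57 males carried the highest levels and C3H sham females the lowest. In the 8 C57 sham males miR-511-3p ranged from 1.59 to 10.6 RPM with a median of 3.35 (6 to 35 reads). In the 7 C57 sham females it ranged from 0 to 2.38 RPM with a median of 0.599 (0 to 7 reads). In the 8 C3H sham females it ranged from 0 to 1.30 RPM with a median of 0.405 (0 to 5 reads), so most of these libraries lay at or under the floor of 3 reads.

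The irradiated groups had higher means than the sham groups of the same sex, with overlap, except within letter A of the C57 males. The 7 irradiated C3H females ranged from 0 to 3.53 RPM with a median of 1.47 (0 to 12 reads). The 4 irradiated C57 males had 1.78, 5.84, 6.93 and 8.40 RPM (8 to 30 reads), and the 1 irradiated C57 female had 2.62 RPM (12 reads). This female lay above all 7 C57 sham females, whereas no irradiated C57 male exceeded the highest sham male. That was sham male 1 at 10.6 RPM, and the irradiated males at 5.84, 6.93 and 8.40 RPM lay above the next highest, 5.78 RPM. Without sham males 1 and 4 the mean was 5.74 RPM in irradiated and 3.30 RPM in sham males. Within letter A the 2 irradiated C57 males had a mean of 3.81 RPM and the 4 sham males 5.53 RPM, and within letter B the means were 7.67 and 2.93 RPM.

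**Figure D2:**
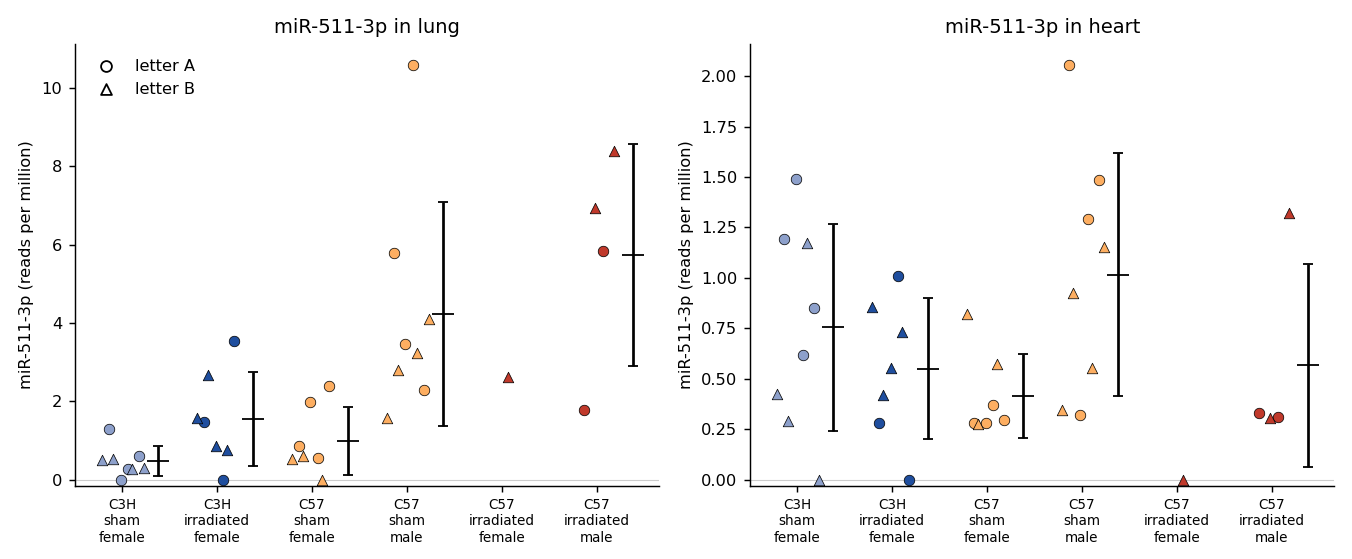
miR-511-3p in RPM in lung (left) and heart (right); each point is 1 library, circles and triangles mark the letters A and B of the sample titles, and black bars give the mean and SD of groups with over 1 library. C57 males sit highest in lung, with a sham mean of 4.23 against 0.991 in sham females, and all heart libraries lie at or below 2.06 on their own finer axis.

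The sex of the mice was not part of how the arms were chosen, and it was compared in C57 sham lung, the only group with both sexes in number. The mean was 4.23 ± 2.86 RPM in males (SD, n = 8) and 0.991 ± 0.866 RPM in females (SD, n = 7), a 4.27-fold ratio. All 8 males lay above the female median and 6 of 8 above every female. On normalised log2 RPM, males were higher by 1.76 (SE 0.51, 95% interval 0.72 to 2.79, limma adjusted p = 0.0368 over 350 miRNAs tested). This passed the call rule used for all miRNAs, an adjusted p under 0.05 with a log2 difference of at least 1.17 in size. The rule called 8 of 350 miRNAs between the sexes (2.29%), 3 higher and 5 lower in males. The low-count filter ignored sex and kept miRNAs that reached 2.79 RPM in enough lung libraries. miR-511-3p reached it in 10 of 35, of which 6 were among the 8 C57 sham males and 0 among the 7 C57 sham females, so within this comparison it entered the tested set through the group where it was high.

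The same difference was 2.03 by edgeR (adjusted p = 0.0100) and 2.05 by DESeq2 (adjusted p = 0.00224). Both used the same tested set, so the limit set by the filter holds for them too. An exact permutation test of the mean RPM, which used no filter, gave a two-sided p = 0.00155, adjusted to 0.00622 over 4 tests of sex. The samples carry the letter A or B in their titles, whose meaning is not stated. Within letter A males exceeded females by 4.08 RPM and within letter B by 2.55 RPM, each with an exact p = 0.0571, the smallest that letter B could give. By limma the difference was 1.73 within letter A (adjusted p = 0.200) and 1.96 within letter B (adjusted p = 0.0226).

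The limma call was not stable to single libraries. It was lost in 8 of 15 fits that left out 1 library, with differences from 1.53 to 2.01 and adjusted p-values up to 0.0913. The edgeR call held in all 15 (1.72 to 2.34, adjusted p up to 0.0329), but on the same tested set, which miR-511-3p entered through the males. The 8 libraries whose removal lost the limma call were sham males 1, 4 and 8 and sham females 9, 10, 13, 14 and 15. Without C57 sham males 1 and 4 together the difference was 1.48 by limma (adjusted p = 0.106) and 1.68 by edgeR (adjusted p = 0.0763), while the exact permutation test gave 3.30 against 0.991 RPM (p = 0.00583). Without these 2 males limma called 0 of 350 miRNAs between the sexes, with 92 at an unadjusted p under 0.05, and edgeR called 0. Sex and age cannot be told apart here, since males were younger than females at irradiation. Cages, sacrifice dates and handling by sex are not given in the sources used here.

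**Figure D3:**
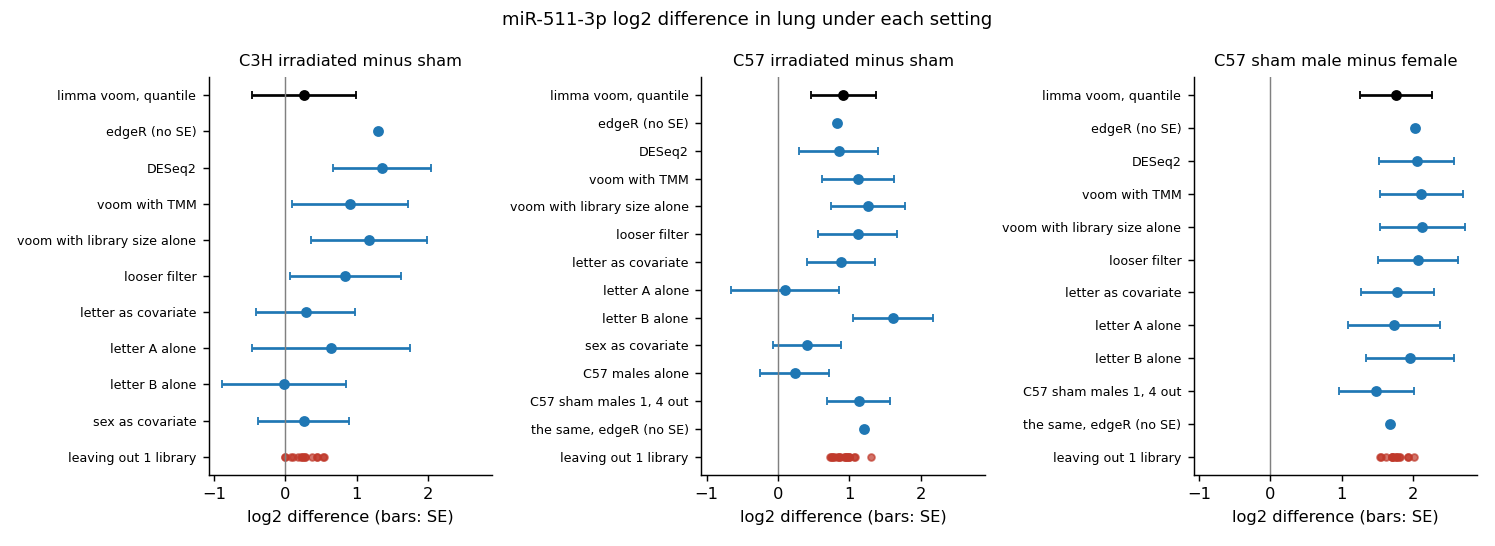
Log2 difference of miR-511-3p in lung (horizontal axis, bars give the SE) for 3 comparisons under each setting; the black point is the limma value reported, blue points are other settings and red points are fits without 1 library. The sex difference lies between 1.48 and 2.13 in every fit shown, whereas the irradiation differences move with normalization, sex and letter.

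Heart showed a sex difference in the same direction at a much lower level. C57 sham males had 1, 1, 2, 3, 3, 4, 4 and 4 reads and C57 sham females had 1, 1, 1, 1, 1, 2 and 3 reads. The means were 1.02 ± 0.604 RPM (SD, n = 8) and 0.414 ± 0.209 RPM (SD, n = 7), with 5 of 8 males above every female (exact permutation p = 0.0183, adjusted p = 0.0244). Most of these libraries lay at or under the floor of 3 reads. Of the 5 males, sham males 7 and 8 had 3 reads, as did sham female 13. They lay above her in RPM only through smaller libraries (3248804 and 2605088 against 3647077 miRNA reads). The difference was larger within letter A, where the means were 1.29 and 0.307 RPM (exact p = 0.0571), against 0.743 and 0.557 RPM within letter B (exact p = 0.457). miR-511-3p did not pass the low-count filter in heart (312 miRNAs did), so no model across miRNAs was fitted for it there. Leukocyte miRNAs moved with it in the same hearts. miR-223-3p had a mean of 331 RPM in males and 142 RPM in females, with 8 of 8 males above every female, and miR-142a-3p had 231 and 126 RPM, with 7 of 8 males above every female. Their part in the heart difference was not tested.

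Set against miR-142a-3p in the same library, the sex difference in lung passed the exact test with both letters together, and that in heart did not. C57 sham males had 4178 ± 1563 reads of miR-511-3p per 1000000 miR-142a-3p reads in lung and females had 1767 ± 1433 (SD, n = 8 and 7, exact permutation p = 0.0109, adjusted p = 0.0218). Without sham males 1 and 4 the male value in lung was 4155 ± 1493 (SD, n = 6, exact permutation p = 0.0186). The lung difference was larger within letter B, with 4180 in males and 666 in females (exact permutation p = 0.0571), than within letter A, with 4176 and 2593 (exact permutation p = 0.257). In heart the values were 4360 ± 2450 and 3344 ± 1778 (exact permutation p = 0.377). The heart difference of 1015 was smaller than the SD of either sex, and its direction turned with the letter, with 5610 in males and 2781 in females within letter A (exact permutation p = 0.143) and 3110 and 4095 within letter B (exact permutation p = 0.629).

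Some marker miRNAs of myeloid and red cells differed between the sexes in the same libraries. The myeloid list held 11 miRNAs, all tested, with log2 differences from 0.12 to 1.34 and a median of 0.63, against a median of 0.04 over all 350 miRNAs. Of these 11, 1 passed the call rule, against 2.29% of all miRNAs: miR-21a-5p, a miRNA that is induced in many cell types by injury and inflammation, with 1.18 (SE 0.37, limma adjusted p = 0.0487). The pan-leukocyte arms miR-142a-3p and miR-142a-5p were 0.63 and 0.92 higher (limma adjusted p = 0.0290 and 0.0368) but lay under the fold threshold. The neutrophil and monocyte miRNA miR-223-3p had a difference of 0.39 (adjusted p = 0.104). The summed level of the list ranged from 40083 to 263696 RPM in males and from 35260 to 44971 RPM in females and was mostly miR-21a-5p (67.8 to 89.8% of each library's sum). Without the miR-21a arms the sum ranged from 9630 to 26774 RPM in males and from 8227 to 11458 RPM in females. Its part in the miR-511-3p difference was not tested.

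Of the erythroid list 2 of 4 members passed the call rule, against 2.29% of all miRNAs, and were lower in males, miR-486a-5p by 2.06 and miR-144-5p by 1.76 on the log2 scale (limma adjusted p = 0.0122 and 0.0306). miR-451a, an abundant erythroid miRNA, had a difference of -0.68 (adjusted p = 0.428). Their summed level ranged from 106 to 756 RPM in males and from 344 to 2121 RPM in females. Its part in the miR-511-3p difference was not tested. No member of the lymphocyte, cardiac muscle, endothelial, epithelial, brain or mesenchymal lists passed the call rule between the sexes, and lymphocyte miR-150-5p had a difference of 0.05. Without sham males 1 and 4, 0 of 11 myeloid and 0 of 4 erythroid members were called, with medians of 0.30 and -1.51. With all libraries, the other called miRNAs were miR-369-3p, higher by 1.19, and miR-671-3p, miR-1199-5p and miR-486b-5p, which fell by 1.57, 1.27 and 1.72; miR-486a-5p and miR-486b-5p are near-identical and may share reads.

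**Figure D4:**
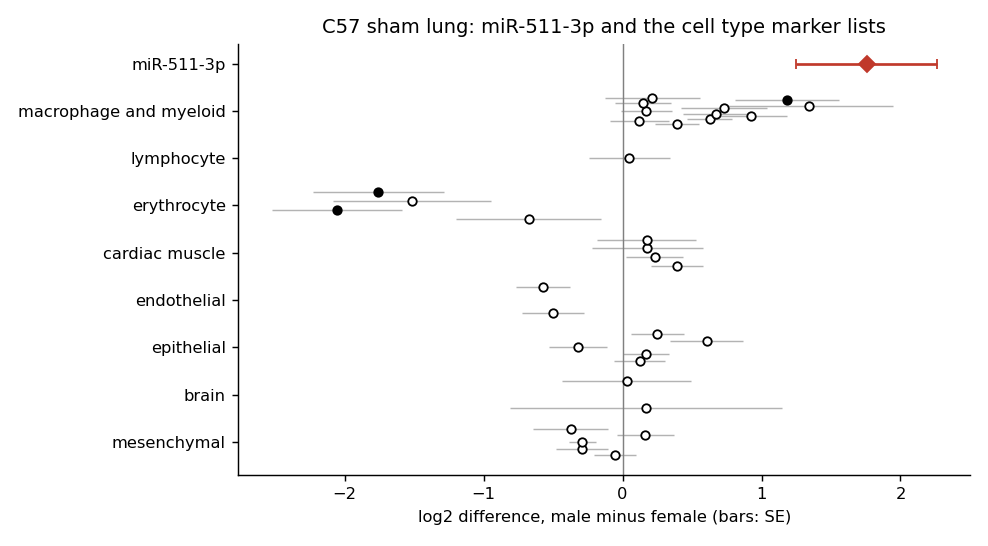
Log2 difference between C57 sham males and females in lung (horizontal axis, bars give the SE) for miR-511-3p (red) and for each miRNA of the cell type marker lists; filled points passed the call rule. miR-511-3p at 1.76 lies to the right of all listed miRNAs, the myeloid list lies between 0.12 and 1.34, and the 4 erythroid miRNAs lie below 0.

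Between irradiated and sham mice, the values of miR-511-3p in lung are descriptions. In C3H the mean was 1.55 ± 1.20 RPM in irradiated (SD, n = 7) and 0.474 ± 0.385 RPM in sham mice (SD, n = 8), with 4 of 7 irradiated mice above every sham mouse. On the normalised scale the difference shrank to 0.26 (SE 0.72), whereas edgeR gave 1.29 and DESeq2 1.35. Voom with library size alone gave 1.17 (SE 0.82), and within letter B the limma value was -0.02 (SE 0.87) although all 4 irradiated letter B mice exceeded all 4 sham letter B mice in RPM. The size of this difference, from counts of 0 to 12 reads, changed with the setting, and the cause was not tested.

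In C57 the mean was 5.12 ± 2.83 RPM in irradiated (SD, n = 5) and 2.72 ± 2.69 RPM in sham mice (SD, n = 15), and all 5 irradiated mice lay within the sham range. The upper end of that range was sham male 1 alone, at 10.6 RPM, with the next sham library at 5.78 RPM. The normalised difference was 0.92 (SE 0.46). It fell to 0.41 (SE 0.48) with sex as a covariate and to 0.23 (SE 0.48) in males alone, where the means were 5.74 and 4.23 RPM. Within letter A it was 0.10 (SE 0.75) and within letter B 1.62 (SE 0.56). Without the 2 outlying sham males the difference was 1.13 (SE 0.44) by limma and 1.20 by edgeR, and without irradiated C57 mouse 2 it was 1.30 by limma. Irradiated and sham C57 lung differed in sex make-up, and the C57 sham libraries were the same as in the comparison of the sexes.

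All marker lists were chosen with earlier results of these data known, and the study itself reports miR-21a as raised in irradiated lung of both strains. Calls and medians of the lists are therefore descriptions here and give no independent support. Some members of the myeloid list were higher in irradiated lung. In C3H 3 of 11 members passed the call rule, miR-21a-5p, miR-21a-3p and miR-146b-5p, with log2 differences of 1.50, 1.47 and 1.21 (limma adjusted p = 0.00509, 0.00177 and 0.00370), against 34 of all 350 miRNAs (9.71%), and the list median was 0.46 against -0.08 over all miRNAs. In C57 1 of 11 was called, miR-21a-3p at 1.41 (limma adjusted p = 0.00373), against 21 of all 350 miRNAs (6%), and the list median was 0.59 against -0.05. The leukocyte arm miR-142a-3p differed by 0.06 in C3H (SE 0.18) and 0.35 in C57 (SE 0.18), and miR-223-3p by 0.09 (SE 0.17) and 0.38 (SE 0.17), with adjusted p-values from 0.103 to 0.835 by limma. The other arm of miR-223, miR-223-5p, was 0.83 higher in irradiated C3H lung (limma adjusted p = 0.00233), under the fold threshold. Without sham males 1 and 4, 4 of 11 were called in C57, miR-21a-5p, miR-21a-3p, miR-146b-5p and miR-147-3p, against 8.57% of all miRNAs. Without these males miR-142a-3p, miR-142a-5p and miR-223-3p were also higher in irradiated C57 lung, by 0.49, 1.00 and 0.43 (limma adjusted p = 0.00707, 0.00190 and 0.0367), all under the fold threshold. The called members are miRNAs of injured and inflamed tissue that several cell types express. Summed over the list, irradiated C3H libraries ranged from 57649 to 121077 RPM against 28855 to 38311 RPM in sham. Irradiated C57 males ranged from 95091 to 173488 RPM and lay within the range of sham males, 40083 to 263696 RPM, though above the 40083 to 68362 RPM of the 6 sham males other than 1 and 4. These sums were mostly miR-21a-5p, and without the miR-21a arms they ranged from 14974 to 18513 RPM in irradiated and from 11193 to 13670 RPM in sham C3H libraries. In C57 males they ranged from 14285 to 16579 RPM in irradiated and from 9630 to 26774 RPM in sham libraries, or to 14263 RPM without males 1 and 4. Markers of other cell types changed too. Cardiac miR-208a-3p and miR-499-5p fell by 1.42 and 1.46 in irradiated C3H lung (limma adjusted p = 0.00509 and 1.22e-05), the 2 of 4 cardiac members that passed the call rule, against 9.71% of all miRNAs. Under the fold threshold, cardiac miR-133a-3p and miR-1a-3p were lower there by 0.87 and 0.60 (limma adjusted p = 0.000948 and 0.0250). Endothelial miR-126a-5p and epithelial miR-200b-3p were lower by 0.73 and 0.55 (limma adjusted p = 0.00852 and 0.0133). Mesenchymal miR-199a-3p was higher by 0.61 (limma adjusted p = 3.1e-05). In C57, miR-499-5p and mesenchymal miR-145a-5p were lower by 1.15 and 0.53 (limma adjusted p = 0.0401 and 0.0475). The brain-enriched miR-9-5p was 1.33 higher in irradiated C57 lung (limma adjusted p = 0.0326), 1 of 2 brain members called, against 6% of all miRNAs. Its irradiated mean of 136 ± 137 RPM (SD, n = 5) was uneven. Only irradiated males 3 and 4, with 197 and 383 RPM summed over the brain list, lay above the highest C57 sham library at 115 RPM. The part of these lists in the miR-511-3p values was not tested.

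Per 1000000 miR-142a-3p reads, miR-511-3p in lung stood at 1675 ± 1487 in irradiated and 722 ± 630 in sham C3H mice (SD, n = 7 and 8), and at 5902 ± 2973 in irradiated and 4178 ± 1563 in sham C57 males (SD, n = 4 and 8). Without sham males 1 and 4 the sham male mean was 4155. Within letter A of the C57 males the irradiated mean was below the sham mean on this scale, 4088 against 4176, and also per 1000000 reads of miR-223-3p, 11668 against 22773. In heart, which lay in the exposed field, the irradiated means were below the sham means, with 0.550 and 0.754 RPM in C3H and 0.567 and 1.02 RPM in C57 males, and the ranges overlapped. Within letter B the direction turned, with 0.640 and 0.472 RPM in C3H and 0.813 and 0.743 RPM in C57 males. The irradiated C57 female had 0 reads in heart, where 3 reads would be 1.46 RPM.

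The strains could be compared in one sex only, because C3H had no males. In female sham lung, the only like-for-like pair apart from the month, C57 had 0.991 ± 0.866 RPM (SD, n = 7) and C3H 0.474 ± 0.385 RPM (SD, n = 8), and 5 of 7 C57 females lay within the C3H range. Within letter A the means were 1.45 and 0.542 RPM, and within letter B 0.377 and 0.406 RPM. In female sham heart C57 had 0.414 ± 0.209 RPM (SD, n = 7) and C3H 0.754 ± 0.511 RPM (SD, n = 8), and all 7 C57 females lay within the C3H range. The heart direction turned with the letter, with 0.307 and 1.04 RPM within letter A and 0.557 and 0.472 RPM within letter B. The leukocyte miRNA miR-142a-3p moved the same way in these hearts, with 111 and 529 RPM within letter A and 147 and 129 RPM within letter B. The C3H mean within letter A rested partly on replicate 3 at 1318 RPM, without which it was 266 RPM (156 to 425 RPM, n = 3). The part of miR-142a-3p was not tested.

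A set of 5 miRNAs followed miR-511-3p most closely over the 35 lung libraries by Spearman rank correlation of log2(RPM + 0.5), and these correlations are descriptions across libraries that share groups and depth. They were miR-362-3p (rho 0.80), miR-7a-5p (0.78), miR-141-3p (0.78), miR-15a-5p (0.74) and miR-324-5p (0.73) of 349 others. Over the 15 C57 sham libraries alone the closest were miR-142a-5p (0.96), miR-98-5p (0.94), miR-362-3p (0.90), miR-324-5p (0.90) and miR-15a-5p (0.86). miR-362-3p, miR-324-5p and miR-15a-5p were in both sets. miR-142a-5p, which led in C57 sham lung, was only at rank 30 over all 35 libraries (rho 0.61), and its mean in C57 sham lung was 3729 RPM in males and 1806 RPM in females.

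Within groups of one strain, sex and treatment, variation between animals was not shown to be shared with the measures tried. Other miRNAs, among them miR-142a-5p, were not tried within groups. In all, 12 relations of lung miR-511-3p were computed in 4 groups of 7 or 8 animals, with miR-142a-3p, with miR-223-3p and with heart miR-511-3p of the same animal. Pearson's r ran from -0.77 to 0.74 and Spearman's rho from -0.71 to 0.67, and none of the 12 passed correction (smallest adjusted exact permutation p = 0.169). Before correction 3 of the 12 had an exact p under 0.05 for r, and their signs differed. Lung miR-511-3p ran with miR-142a-3p in C57 sham males (r = 0.74, exact permutation p = 0.0366, rho 0.67, exact permutation p = 0.0831) and against it in C3H sham females (r = -0.76, exact permutation p = 0.0295, rho -0.45, exact permutation p = 0.267). In irradiated C3H females it ran against heart miR-511-3p (r = -0.77, exact permutation p = 0.0423, rho -0.71, exact permutation p = 0.0881). Without the 2 animals farthest from the median these r values were 0.25, -0.49 and -0.39.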

How the data were processed

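Deposited count tables of mature miRNAs, 1 per tissue, were used for lung, heart, brain, WBC and RBC. The authors made these raw counts with QIAseq libraries sequenced on a NextSeq, adapter and length trimming, and alignment to mm10 in BaseSpace; the use of molecular identifiers and the treatment of reads with several matches are not given in the sources used here. Groups, sex and letter were taken from the sample labels. Replicate numbers were given in accession order and pair no samples. RPM was the count divided by the library total. Libraries of a group were not duplicates (746 pairs, smallest chi-square per degree of freedom 15.5). Libraries of 1 tissue came from different animals, and animals were shared between tissues.

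Differences in lung were fitted with limma 3.58.1 (R 4.3.3), voom and quantile normalization of log2 RPM over 350 of 1915 miRNAs that passed filterByExpr (minimum count 10, minimum total 15). 4 groups (strain by irradiation) were used, or 6 groups with sex. A call needed an adjusted p under 0.05 (Benjamini-Hochberg) and a log2 difference of at least 1.17 in size. The study used the same fold threshold of 2.25 and a p-value cutoff of 0.05, which it does not describe as adjusted. edgeR 4.0.16 (quasi-likelihood, TMM) and DESeq2 1.42.0 were alternatives. The fits were tested on simulated data. Single comparisons used two-sided exact permutation tests in scipy 1.17.1. The members and all lists were chosen with earlier results of these data known. Named miRNAs were both arms, the marker lists, the 5 miRNAs most like miR-511 in lung and those sharing its seed. The other 4 miRNAs called between the sexes were named after their values were seen. Correlations and likeness planned for miR-511-5p were computed for miR-511-3p because miR-511-5p had at most 1 read per library.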

Additional observations from a re-analysis of the deposited data

Results flagged for a closer look

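Of 8 groups of lung and heart libraries small enough for the check, 2 held a library of miR-511-3p far from the others of its group. How often chance would flag a group at such low counts was not computed. In lung of C3H sham mice the highest library, replicate 2, had 1.30 RPM from 5 reads, where the other 7 had 0 to 2 reads. In heart of irradiated C57 mice the highest library, replicate 3, had 1.32 RPM from 4 reads, where the other 4 had 0 or 1 read. Both values rest on counts of 4 or 5 reads.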

How the results depend on the processing

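The male excess of miR-511-3p in C57 sham lung was positive in all 10 settings other than single-library fits (1.48 to 2.13) and called in 7 (adjusted p 0.00224 to 0.200 over the 10). It was not called within letter A (1.73, 0 arms called), without C57 sham males 1 and 4 by limma (1.48, 0 arms) or by edgeR (1.68, 0 arms), and the cause was not tested. Leaving out 1 library gave 1.53 to 2.01 by limma, with 0 to 1 arms called, and 1.72 to 2.34 by edgeR. Apart from the looser filter, which kept every miRNA with a read, these fits used the tested set that miR-511-3p entered through the males. In C57 lung the difference between irradiated and sham mice ran from 0.10 to 1.62 over 12 settings and from 0.72 to 1.30 without 1 library. The values of this comparison were in view when the arm was chosen, so nothing is read from its count past the call rule, which was 0 with all libraries, 1 by edgeR without sham males 1 and 4, and 0 to 1 without 1 library (1 by limma without irradiated mouse 2). In C3H lung the difference ran from -0.02 to 1.35 over 9 settings and from -0.01 to 0.54 without 1 library. Settings within a letter for the comparison of the sexes, edgeR without single libraries, the exact tests and the removal of males 1 and 4 were added after seeing the data. The exact test of the male excess held without each library in turn in lung (p 0.00117 to 0.00333) and heart (p 0.00816 to 0.0344). Of all miRNAs, 8 were called between the sexes, against 14 by edgeR, 14 by DESeq2, 5 with library size alone, 16 under the looser filter, 1 within letter A, 49 within letter B and 0 without sham males 1 and 4. In irradiated C57 lung 21 were called, against 6 within letter A, 34 within letter B and 5 in males alone. Under the stricter filter, at least 10 counts in every library, miR-511-3p was not tested. The number of correlations past correction was 0 under all 4 alternatives. Low counts limited every value, since the median lung library held 6 reads. Replicate numbers were given in accession order and pair no groups; lung and heart were compared within animals.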
